A study of Mus musculus with 8 samples.

Results

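The genes described are the 26 mouse genes of GABA signalling and interneuron identity: GABA receptor subunits, scaffolds of the inhibitory synapse, the enzymes and transporters that make, pack, clear and break down GABA, and interneuron markers. They were chosen by gene name, with no measured value in the rule, but with earlier results of these data known. All 26 were found once each among the 54532 genes of the deposited count table. The libraries labelled KO carry the genotype Nsun5-KO and the libraries labelled WT are wild type. Both came from 3-month-old male mice of one litter, from tissue that the series calls whole brain. Each genotype had 4 libraries of ribosome footprints, the RNA fragments that ribosomes protect from nuclease, and 4 mRNA libraries of matching names. The protocol names 5 mice per genotype and does not tie a library to a mouse, so each p-value reflects the spread among libraries, which may be technical, and pooling of animals was not stated. No promoter, Cre driver or site of the deletion is named in the labels.

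GABA is the main inhibitory transmitter of the adult forebrain. It opens chloride channels built from several subunits of the GABA-A family, most often alpha, beta and gamma or delta chains, and it acts more slowly through the GABA-B receptor, a G protein-coupled pair of proteins. Interneurons are local GABA neurons, and are sorted by the calcium-binding protein parvalbumin or by the peptides somatostatin and VIP, among other markers.

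The targeted gene was not lower in the mRNA of the libraries labelled KO. Nsun5 had 102, 124, 83 and 110 mRNA counts in the libraries labelled KO, against 91, 82, 103 and 109 in those labelled WT (log2 fold change 0.12 ± 0.15 SE, adjusted p = 0.820). Its footprint counts were 3, 0, 1 and 2 in the libraries labelled KO and 2, 11, 0 and 6 in those labelled WT, too few for the footprint test. A count over the whole gene does not show whether an exon is missing, so KO and WT below stand for the libraries labelled so, and each direction given rests on those labels. Total counts were 0.586 to 1.30 M in KO footprint libraries and 1.20 to 3.49 M in WT footprint libraries, and 16.2 to 17.8 M in KO mRNA libraries and 15.6 to 17.4 M in WT mRNA libraries (M, mega). The 26 genes together received 1298 to 5194 footprint counts per KO library and 4480 to 8844 per WT library, so that low genes are measured far less precisely in footprints than in mRNA.

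No GABA or interneuron gene differed between the genotypes after adjustment over all genes, in mRNA, in footprints or in footprints relative to mRNA. The 26 genes took 0.455% ± 0.0196 of the protein-coding mRNA counts in KO libraries and 0.471% ± 0.0135 in WT libraries, and 0.571% ± 0.0305 of the coding footprint counts in KO libraries and 0.585% ± 0.0221 in WT libraries (SD, n = 4 each). With edgeR's quasi-likelihood test and Benjamini-Hochberg adjustment, 0 of 25 tested members passed 0.05 in mRNA (0% of the 13058 genes tested), 0 of 24 in footprints (0% of 8476) and 0 of 24 in translational efficiency (0% of 9673). Translational efficiency here is the genotype difference in footprints less that in mRNA, fitted in 1 model. That model treats footprint and mRNA libraries of the same name as independent. At an unadjusted p under 0.05, 4 of 25 members were below that level in mRNA, 16% against 10.5% of all genes: 1 was higher in KO (5.32% of all genes) and 3 were lower (5.22%). The same count was 2 of 24 in footprints, 8.33% against 5.52% of all genes, with 1 higher in KO (2.88%) and 1 lower (2.64%). It was 4 of 24 in translational efficiency, 16.7% against 10.8% of all genes, with 2 higher in KO (5.37%) and 2 lower (5.44%). DESeq2 called 87 genes in mRNA (0.666%), 4 in footprints (0.0472%) and 144 in translational efficiency (1.49%), with 0 members in each. The median log2 difference of the members was -0.03 in mRNA, -0.06 in footprints and 0.02 in translational efficiency, beside -0.01, -0.00 and 0.00 over all genes tested.

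**Figure D1:**
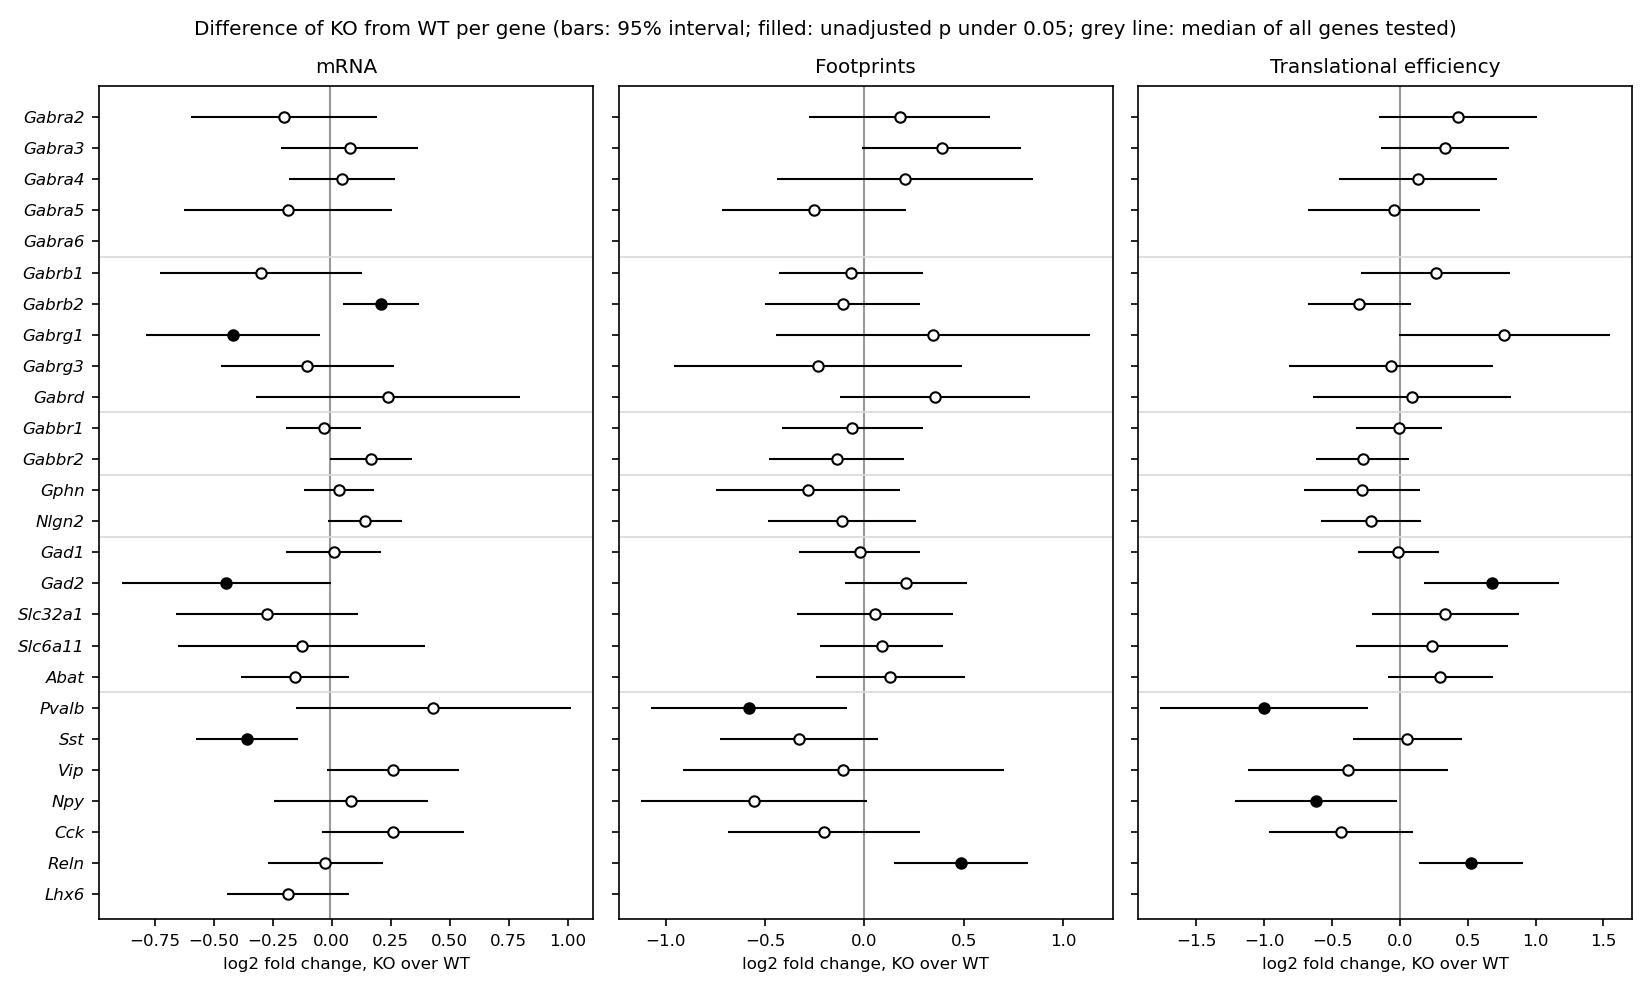
Log2 difference, KO over WT, of each member in mRNA, in footprints and in translational efficiency, with its 95% interval; filled points have an unadjusted p under 0.05 and the grey line is the median of all genes tested. Points lie on both sides of 0 in each panel, 12 of 25 above it in mRNA (48.6% of all genes), 10 of 24 in footprints (49.6%) and 12 of 24 in translational efficiency (50.4%).

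GABA synthesis was carried at the mRNA level by both glutamate decarboxylases. Gad1 encodes GAD67, which makes most of the brain's GABA, and lies on chromosome 2 at 70553072 to 70602014 (mm10, plus strand). Gad2 encodes GAD65, the form concentrated at nerve terminals, and lies on chromosome 2 at 22622205 to 22693874 (mm10, plus strand). All gene positions are those of the deposited table. Per length, Gad1 stood at 51.0 ± 5.96 RPKM in KO mRNA and 50.2 ± 3.36 RPKM in WT mRNA (SD, n = 4 each; RPKM, read counts scaled by the authors to gene length and library size). Gad2 stood at 44.2 ± 13.0 RPKM in KO mRNA and 59.6 ± 13.6 RPKM in WT mRNA.

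Gad1 mRNA was 370, 417, 341 and 446 CPM in KO libraries 1 to 4, against 355, 402, 398 and 411 CPM in WT libraries 1 to 4 (CPM, counts scaled to the TMM library size). Its footprints were 208, 233, 219 and 237 CPM in KO libraries and 216, 226, 232 and 237 CPM in WT libraries. The genotypes overlapped in both kinds of library, with a log2 fold change of 0.01 ± 0.09 in mRNA (95% interval -0.19 to 0.21) and -0.02 ± 0.14 in footprints (-0.33 to 0.28). The footprint SE of Gad1 was the smallest of the 24 members tested.

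Gad2 did not keep the pattern of Gad1, though no test of it passed. Gad2 mRNA was 209, 260, 206 and 373 CPM in KO libraries and 322, 477, 294 and 336 CPM in WT libraries. KO libraries 1, 2 and 3 lay below every WT library and KO library 4 lay above 3 of the 4 WT libraries, so the groups overlapped (log2 fold change -0.45 ± 0.20, adjusted p = 0.472). Without WT library 2 it was -0.28. Gad2 footprints ran the other way, with 209, 182, 173 and 177 CPM in KO libraries against 173, 158, 143 and 167 CPM in WT libraries. The lowest KO library and the highest WT library were nearly level, at 172.98 CPM in KO and 172.77 CPM in WT, and the footprint log2 fold change was 0.21 ± 0.14 (adjusted p = 0.881). The difference in translational efficiency was 0.68 ± 0.24 on the log2 scale (95% interval 0.18 to 1.17, adjusted p = 0.329).

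The ratio of both enzymes within a library does not depend on library scaling. In mRNA, Gad2 over Gad1 in RPKM was 0.735, 0.811, 0.787 and 1.09 in KO libraries and 1.18, 1.54, 0.960 and 1.06 in WT libraries. In footprints the same ratio was 1.31, 1.01, 1.03 and 0.971 in KO libraries and 1.04, 0.905, 0.804 and 0.914 in WT libraries. KO library 4 lay inside the WT range in mRNA, and KO libraries 2, 3 and 4 lay inside it in footprints. In footprints the genotype means were 1.08 ± 0.154 in KO and 0.915 ± 0.0959 in WT, and in mRNA 0.855 ± 0.158 in KO and 1.19 ± 0.254 in WT (SD, n = 4 each).

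The remaining handling genes overlapped between genotypes in every kind of library. Slc32a1, the vesicular transporter VGAT that loads GABA into synaptic vesicles, had 93.8, 98.2, 70.9 and 126 CPM in KO mRNA and 87.7, 128, 116 and 140 CPM in WT mRNA (log2 fold change -0.28 ± 0.17, adjusted p = 0.611). Its footprints were 108, 78.6, 88.4 and 80.5 CPM in KO libraries and 73.1, 72.3, 80.9 and 114 CPM in WT libraries (0.05 ± 0.18, adjusted p = 0.989). Slc6a11 encodes GAT3, the astrocytic GABA transporter, and its mRNA spread widely within each genotype, from 144 to 311 CPM in KO and from 200 to 300 CPM in WT. Abat encodes GABA transaminase, which breaks GABA down, and its mRNA spanned 302 to 425 CPM in KO and 359 to 408 CPM in WT. Over these 5 genes 1 of 5 mRNA log2 fold changes was above 0, with a median of -0.15, and 4 of 5 footprint ones were above 0, with a median of 0.09, none of them past the test.

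**Figure D2:**
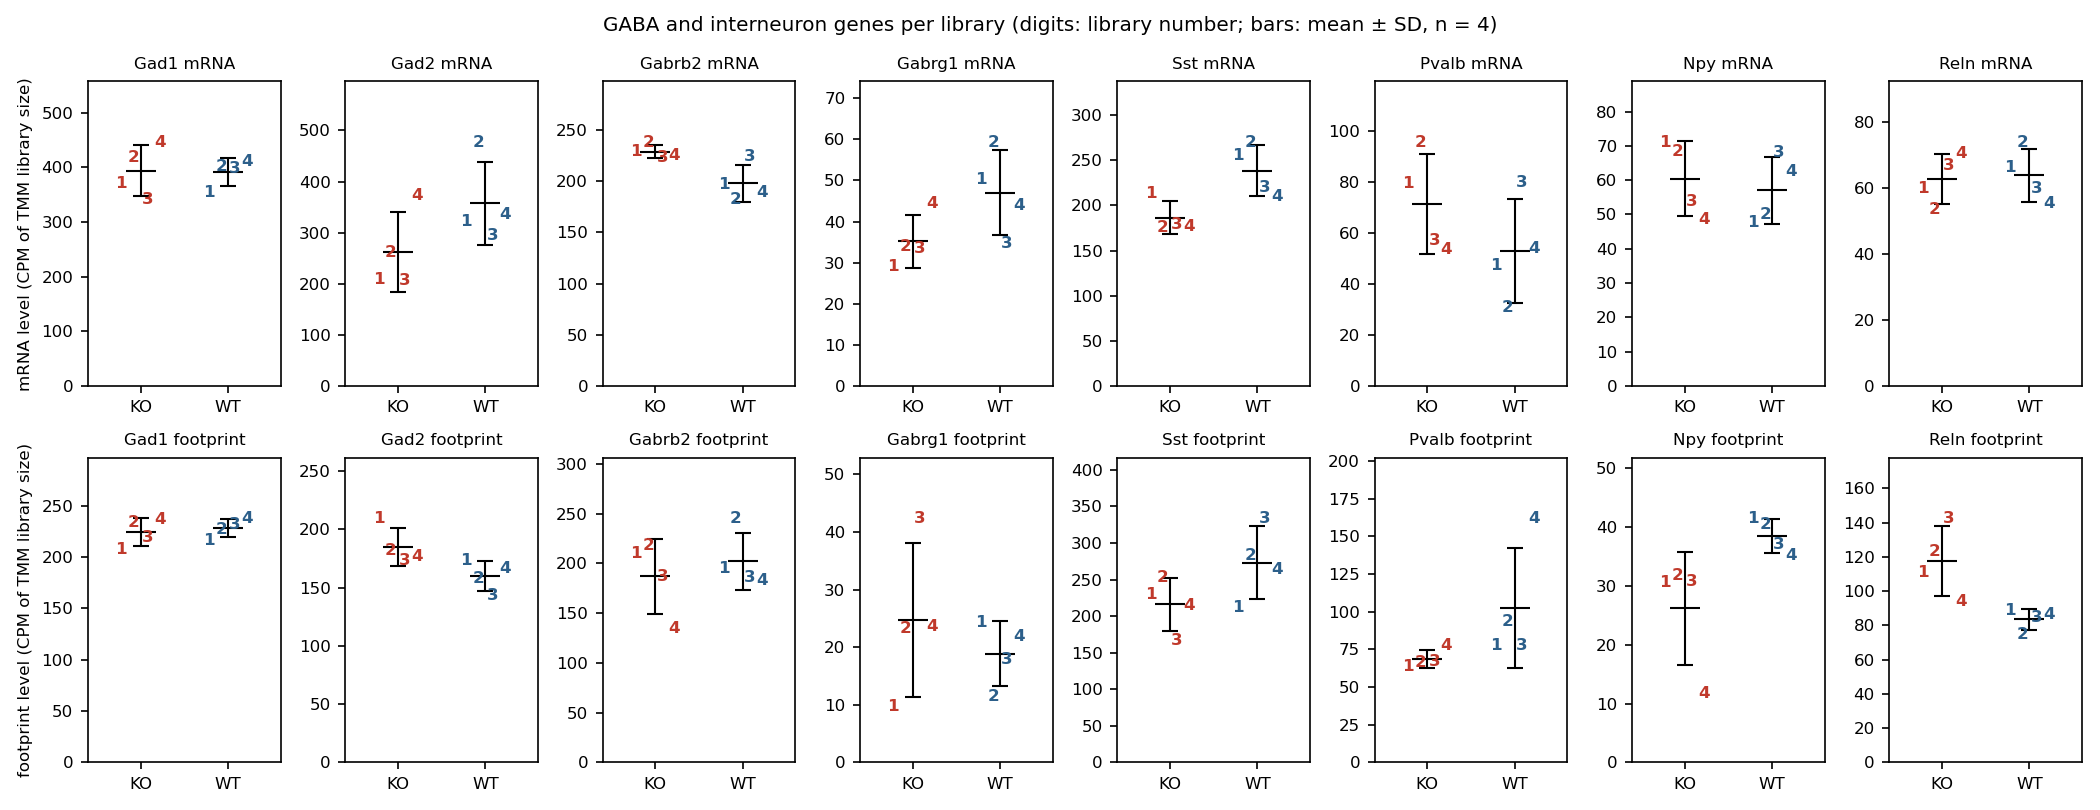
CPM of 8 of the genes in each library, mRNA and footprints, KO left of WT; digits are library numbers and bars are the mean ± SD. Gad1 libraries overlap in both kinds, while Reln and Npy footprints do not overlap between the genotypes.

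Among the peptide genes, Sst had the smallest unadjusted mRNA p of the members. Sst encodes somatostatin, the peptide of dendrite-targeting interneurons, and lies on chromosome 16 at 23889573 to 23890958 (mm10, minus strand). Its promoter is shown with those of Vip, Cck and Gad2 because these 4 genes hold a cyclic AMP response element (CRE) or its core upstream of the start, an element that CREB binds and that was described early in the somatostatin gene. Each window runs from 250 bases before to 50 bases after the RefSeq start, in GRCm38.p6, written 5′ to 3′ on the gene's strand. Capitals mark TGACGTCA in Sst and TGACG, or CGTCA where it is read on the other strand, in the others. The windows are chr16:23890795-23891094 (minus) for Sst, chr10:5638968-5639267 (plus) for Vip, chr9:121495645-121495944 (minus) for Cck and chr2:22622077-22622376 (plus) for Gad2.
Sst: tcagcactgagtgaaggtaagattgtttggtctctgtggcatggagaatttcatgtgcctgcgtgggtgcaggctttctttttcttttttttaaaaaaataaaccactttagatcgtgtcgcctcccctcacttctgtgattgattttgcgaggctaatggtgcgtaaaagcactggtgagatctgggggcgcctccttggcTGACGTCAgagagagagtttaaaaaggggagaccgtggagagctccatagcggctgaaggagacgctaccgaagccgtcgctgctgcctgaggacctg
Vip: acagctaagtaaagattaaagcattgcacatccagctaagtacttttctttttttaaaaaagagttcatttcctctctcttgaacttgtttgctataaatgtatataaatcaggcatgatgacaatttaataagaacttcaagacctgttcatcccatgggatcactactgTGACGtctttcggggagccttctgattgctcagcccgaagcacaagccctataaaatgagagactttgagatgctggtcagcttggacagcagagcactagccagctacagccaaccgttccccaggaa
Cck: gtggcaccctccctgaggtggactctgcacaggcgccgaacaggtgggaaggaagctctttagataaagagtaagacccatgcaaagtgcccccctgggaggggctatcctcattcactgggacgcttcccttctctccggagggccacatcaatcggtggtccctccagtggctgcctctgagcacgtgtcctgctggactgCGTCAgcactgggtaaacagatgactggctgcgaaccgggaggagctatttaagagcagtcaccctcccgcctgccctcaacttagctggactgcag
Gad2: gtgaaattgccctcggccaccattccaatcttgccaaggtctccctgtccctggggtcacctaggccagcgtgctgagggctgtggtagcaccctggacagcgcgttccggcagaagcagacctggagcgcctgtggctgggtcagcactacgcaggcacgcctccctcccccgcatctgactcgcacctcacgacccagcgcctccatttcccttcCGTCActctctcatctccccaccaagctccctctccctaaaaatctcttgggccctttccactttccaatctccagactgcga

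The motif began 48 bases before the start in Sst, 79 in Vip, 47 in Cck and 33 in Gad2. RefSeq windows were matched for 24 of the 26 members, 31 windows in all, and those of Abat and Gabrd were not printed or searched. The palindrome TGACGTCA was found in 1 of the 31 windows (3.23%), that of Sst, and in 588 of all 32851 windows (1.79%). TGACG on either strand, which the palindrome contains, was found in 6 of 31 windows (19.4%) and in 6837 of all 32851 (20.8%), a share close to that of the members. The other 2 of the 6 were Gabrb2 and Nlgn2, where it spans the start itself.

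Sst mRNA was 213, 176, 179 and 177 CPM in KO libraries, against 255, 270, 220 and 210 CPM in WT libraries. KO libraries 2, 3 and 4 lay below every WT library and KO library 1 lay just above the lowest WT library. The log2 fold change was -0.36 ± 0.10 (95% interval -0.58 to -0.14, adjusted p = 0.337). Sst footprints were 230, 253, 167 and 215 CPM in KO libraries and 212, 283, 333 and 264 CPM in WT libraries, with overlapping groups (-0.33 ± 0.19, adjusted p = 0.881). The difference in translational efficiency was 0.05 ± 0.19 (95% interval -0.35 to 0.46). In bulk brain, fewer cells of a type and less RNA per cell cannot be told apart, for Sst as for the markers below.

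Vip and Cck had mRNA log2 fold changes of the other sign than Sst. Vip encodes the peptide of interneurons that inhibit other interneurons, and its mRNA was 43.2, 41.8, 51.3 and 36.1 CPM in KO libraries and 38.6, 28.5, 38.9 and 37.8 CPM in WT libraries (0.26 ± 0.13, adjusted p = 0.498). Vip footprints rested on 7 to 25 counts per KO library and 27 to 55 per WT library, and gave -0.11 ± 0.38. Cck encodes cholecystokinin, which excitatory cortical neurons make as well as basket interneurons, and its mRNA spanned 238 to 340 CPM in KO and 214 to 301 CPM in WT (0.26 ± 0.14, adjusted p = 0.540). Cck footprints spanned 143 to 239 CPM in KO and 160 to 299 CPM in WT (-0.20 ± 0.22, adjusted p = 0.940).

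Npy and Pvalb footprints were lower in every KO library than in every WT library, without passing the test. Npy encodes neuropeptide Y, found in Sst cells and in neurogliaform interneurons, and lies on chromosome 6 at 49822710 to 49829507 (mm10, plus strand). Its footprints were 30.5, 31.7, 30.8 and 11.8 CPM in KO libraries and 41.4, 40.3, 37.0 and 35.1 CPM in WT libraries. These rest on 25, 60, 16 and 12 counts in KO and 73, 130, 101 and 93 counts in WT, and the log2 fold change was -0.56 ± 0.26 (95% interval -1.12 to 0.01, adjusted p = 0.881). Without KO library 4 it was -0.29. Npy mRNA overlapped, with 71.0, 68.5, 53.8 and 48.5 CPM in KO libraries and 47.7, 50.1, 68.0 and 62.4 CPM in WT libraries, and the difference in translational efficiency was -0.62 ± 0.29 (adjusted p = 0.442).

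Pvalb encodes parvalbumin, the calcium buffer of fast-spiking interneurons and also of cerebellar Purkinje cells, and lies on chromosome 15 at 78191114 to 78206400 (mm10, minus strand). Its footprints were 63.5, 66.5, 67.3 and 77.5 CPM in KO libraries and 77.6, 93.3, 78.0 and 162 CPM in WT libraries. The gap between KO library 4 and WT library 1 was under 1 CPM, and WT library 4 lay far above the rest (log2 fold change -0.58 ± 0.23, adjusted p = 0.875). Without WT library 4 it was -0.26. Pvalb mRNA had the other sign, with 79.3, 95.6, 57.2 and 53.6 CPM in KO libraries and 47.5, 30.8, 79.8 and 53.9 CPM in WT libraries (0.43 ± 0.26, adjusted p = 0.592). The difference in translational efficiency, -0.9998 ± 0.37 (95% interval -1.77 to -0.23, adjusted p = 0.345), was the largest in size of the 24 members with all libraries in the fit. Without WT library 4 it was -0.70, and that of Gabrg1 was then larger in size at 0.90.

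Reln footprints were the opposite case, higher in every KO library than in every WT library. Reln encodes reelin, a secreted glycoprotein that guides layering in development and is made by interneurons in the adult cortex, and lies on chromosome 5 at 21884454 to 22344702 (mm10, minus strand). Its footprints were 111, 123, 142 and 94.2 CPM in KO libraries and 88.9, 74.7, 84.5 and 86.3 CPM in WT libraries (log2 fold change 0.49 ± 0.16, 95% interval 0.15 to 0.82, adjusted p = 0.863). Reln mRNA was 59.9, 53.4, 66.7 and 70.5 CPM in KO libraries and 66.2, 73.8, 59.8 and 55.4 CPM in WT libraries, with overlapping groups and a log2 fold change of -0.03 ± 0.11. The difference in translational efficiency was 0.52 ± 0.19 (adjusted p = 0.329).

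Footprint groups did not overlap in 4 of 24 members (16.7%), against 3.61% of all genes tested: Gad2 and Reln were higher in KO (1.57% of all genes) and Npy and Pvalb lower (2.04%). The median footprint SE was 0.19 for the members and 0.29 for all genes tested, so these shares compare genes measured with unlike precision. In mRNA 0 of 25 members tested had no overlap, against 5.59% of all genes, 2.85% higher and 2.74% lower in KO. The footprint count depends on the library scaling, since Gad2 and Pvalb are separated by under 1 CPM. It was 3 of 24 with RLE scaling and with coding totals, which leave out Pvalb, and 3 with upper quartile scaling, which leaves out Gad2; Reln and Npy had no overlap under these 4 scalings. Lhx6, the transcription factor of Sst and Pvalb interneurons, had 17.2 to 20.9 CPM in KO mRNA and 17.8 to 24.4 CPM in WT mRNA (-0.19 ± 0.12, adjusted p = 0.607). Its footprints, 3, 11, 0 and 0 counts in KO and 6, 9, 6 and 18 in WT, were too few to test. Of the 7 marker genes 4 had an mRNA log2 fold change above 0, and of the 6 tested in footprints 1 did.

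The GABA-A receptor subunits varied in sign, and Gabrb2 and Gabrg1 had an unadjusted mRNA p under 0.05. Gabrb2 encodes the beta2 chain, part of the most common GABA-A receptor, and lies on chromosome 11 at 42419757 to 42629028 (mm10, plus strand). Its mRNA was 229, 238, 224 and 225 CPM in KO libraries and 197, 182, 224 and 189 CPM in WT libraries. The lowest KO library and the highest WT library met, at 223.74 CPM in KO and 223.87 CPM in WT, so the groups overlapped by a margin under 1 CPM (0.21 ± 0.07, adjusted p = 0.406). Its footprints were 210, 218, 186 and 134 CPM in KO libraries and 195, 245, 186 and 182 CPM in WT libraries (-0.11 ± 0.18, adjusted p = 0.965).

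Gabrg1 encodes the gamma1 chain, which is restricted to fewer brain areas than the main gamma chain, and lies on chromosome 5 at 70751047 to 70842617 (mm10, minus strand). Its mRNA was 29.1, 33.8, 33.3 and 44.4 CPM in KO libraries and 50.1, 59.3, 34.8 and 43.9 CPM in WT libraries. KO library 4 lay inside the WT range and the other three below it (log2 fold change -0.42 ± 0.17, adjusted p = 0.442). Gabrg1 footprints, with 8 to 44 counts per KO library and 37 to 58 per WT library, were 9.77, 23.2, 42.3 and 23.6 CPM in KO libraries and 24.4, 11.5, 17.9 and 21.9 CPM in WT libraries (0.34 ± 0.37, adjusted p = 0.935). Gabrd encodes the delta chain of receptors outside the synapse, and its mRNA was 67.6, 80.7, 54.9 and 77.2 CPM in KO libraries and 29.8, 55.8, 83.8 and 68.5 CPM in WT libraries (0.24 ± 0.25, adjusted p = 0.782). Its footprints were 55.0, 43.3, 92.3 and 52.0 CPM in KO libraries and 48.7, 50.2, 46.5 and 37.7 CPM in WT libraries (0.35 ± 0.22, adjusted p = 0.881). Each Gabrd value depends on 1 library: the mRNA difference was 0.016 without WT library 1, and the footprint difference 0.13 without KO library 3. Gabrg3, a low gamma chain gene, had -0.10 ± 0.17 in mRNA and -0.23 ± 0.34 in footprints.

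The alpha chains set where a receptor sits and how benzodiazepines act on it. Gabra3 was the most abundant of those measured, with 46.6 ± 3.13 RPKM in KO mRNA and 43.6 ± 9.01 RPKM in WT mRNA. Gabra5, known for the hippocampus, followed at 26.1 ± 6.88 RPKM in KO and 29.3 ± 7.51 RPKM in WT. Gabra4, the partner of delta chains in thalamus and striatum, stood at 24.2 ± 1.07 RPKM in KO and 23.2 ± 3.68 RPKM in WT, and Gabra2 was lowest of these at 8.21 ± 1.94 RPKM in KO and 9.33 ± 1.91 RPKM in WT. Gabra5 and Gabra4 did not differ beyond their spread over libraries, while Gabra3 lay above both and Gabra2 below both in group means by more than 1 SD. Another coding gene overlaps Gabra5 on the opposite strand over 90368 bases, and counting by strand was not stated, so reads of both cannot be told apart. In KO over WT, the mRNA log2 fold changes of these 4 alpha chains ran from -0.20 to 0.08 and the footprint ones from -0.25 to 0.39, the highest being Gabra3 (0.39 ± 0.19, adjusted p = 0.881).

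Gabra4 and Gabrb1 stand head to head on chromosome 5, with Gabra4 at 71569749 to 71658308 on the minus strand and Gabrb1 at 71658113 to 72149037 on the plus strand, so that their models overlap by 196 bases. Their promoter windows are printed because the genes share this region: chr5:71658259-71658558 (minus) for Gabra4 and chr5:71657671-71657970 (plus) for Gabrb1 in RefSeq GRCm38.p6, 288 bases apart. Neither holds TGACG on either strand, and no letters are in capitals.
Gabra4: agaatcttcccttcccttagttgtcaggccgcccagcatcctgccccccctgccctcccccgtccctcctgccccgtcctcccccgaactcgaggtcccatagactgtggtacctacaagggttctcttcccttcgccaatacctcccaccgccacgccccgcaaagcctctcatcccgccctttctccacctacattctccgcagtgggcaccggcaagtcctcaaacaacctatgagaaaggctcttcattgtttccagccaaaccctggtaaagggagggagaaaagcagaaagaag
Gabrb1: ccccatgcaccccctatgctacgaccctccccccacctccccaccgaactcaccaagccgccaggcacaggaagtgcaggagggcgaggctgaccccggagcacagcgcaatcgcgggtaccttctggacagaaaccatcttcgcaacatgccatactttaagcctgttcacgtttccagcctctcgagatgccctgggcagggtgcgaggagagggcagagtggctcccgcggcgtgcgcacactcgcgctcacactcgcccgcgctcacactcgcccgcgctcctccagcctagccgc

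Gabra4 and Gabrb1 differed from each other in the spread of their mRNA. Gabra4 spanned 140 to 155 CPM in KO and 122 to 174 CPM in WT (log2 fold change 0.04 ± 0.10). Gabrb1, a beta chain gene also made by astrocytes, was 130, 118, 180 and 142 CPM in KO libraries and 208, 228, 136 and 129 CPM in WT libraries (-0.30 ± 0.19, adjusted p = 0.616). WT libraries 1 and 2 lay above every KO library in Gabrb1, and WT libraries 3 and 4 lay inside the KO range.

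Gabra6, the alpha chain of cerebellar granule cells, was almost absent. It had 2 mRNA counts over the 4 KO libraries and 32 over the 4 WT libraries, with 30 of those 32 in WT library 2. It had 0 footprint counts in all 8 libraries, which allows up to 0.690 CPM in KO and 0.287 CPM in WT over the summed total counts, for counting error only. Of the 8 listed cerebellar genes, Cbln3 alone had 0 footprint counts, and Pcp2 too had under 10. The list summed to 139 to 198 CPM in KO and 156 to 270 CPM in WT footprints, and to 274 to 288 CPM in KO and 310 to 438 CPM in WT mRNA. A large part of these sums was Calb1, which is also listed here among the interneuron identity genes. Calb1 was 142 ± 22.9 CPM in KO and 150 ± 58.4 CPM in WT footprints, and 166 ± 9.09 CPM in KO and 206 ± 43.1 CPM in WT mRNA. Gabra6 entered no test.

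No gene of the GABA-B receptor or the scaffolds passed the test in any comparison. Gabbr1 encodes the chain that binds GABA and Gabbr2 the chain that couples to the G protein. Gabbr1 was 757 ± 33.1 CPM in KO mRNA and 775 ± 62.5 CPM in WT mRNA (-0.03 ± 0.07, 95% interval -0.19 to 0.13), and 285 ± 15.3 CPM in KO footprints and 298 ± 47.3 CPM in WT footprints. Gabbr2 was 346 ± 27.8 CPM in KO mRNA and 308 ± 21.7 CPM in WT mRNA (0.17 ± 0.08, adjusted p = 0.486), and 90.1 ± 16.5 CPM in KO footprints and 100 ± 5.34 CPM in WT footprints (SD, n = 4 each). Gphn encodes gephyrin, which anchors glycine and GABA-A receptors at synapses, and had 0.03 ± 0.07 in mRNA and -0.28 ± 0.21 in footprints. Nlgn2 encodes neuroligin 2, the adhesion protein of inhibitory synapses, and had 0.14 ± 0.07 in mRNA and -0.11 ± 0.17 in footprints, with adjusted p of 0.511 and 0.964. The differences in translational efficiency were -0.01 ± 0.15 for Gabbr1, -0.28 ± 0.17 for Gabbr2, -0.28 ± 0.21 for Gphn and -0.22 ± 0.18 for Nlgn2. Without WT libraries 1 and 2 the Gphn values were -0.44 in footprints and -0.43 in translational efficiency. Without KO library 3 they were -0.12 and -0.16. The Gabbr2 footprint difference was -0.14 with all libraries and -0.02 without KO library 3.

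Levels across the members spanned a wide range per length. In mRNA, Sst was highest (256 ± 24.9 RPKM in KO, 324 ± 38.2 RPKM in WT), followed by Cck (229 ± 35.5 RPKM in KO, 189 ± 32.2 RPKM in WT) and Npy (106 ± 19.2 RPKM in KO, 98.7 ± 17.0 RPKM in WT). Sst and Cck differed by less than the larger of their SDs in KO and by more than both SDs in WT. The tested members with the lowest levels were Reln (2.61 ± 0.315 RPKM in KO, 2.63 ± 0.326 RPKM in WT) and Gabrg3 (2.99 ± 0.329 RPKM in KO, 3.18 ± 0.861 RPKM in WT), which differed by less than the larger SD in WT. RPKM divides by an exonic length of 23738 bases for Reln and 11934 for Gabrg3. In footprints Sst was again highest, at 288 ± 48.5 RPKM in KO and 361 ± 65.9 RPKM in WT.

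**Figure D3:**
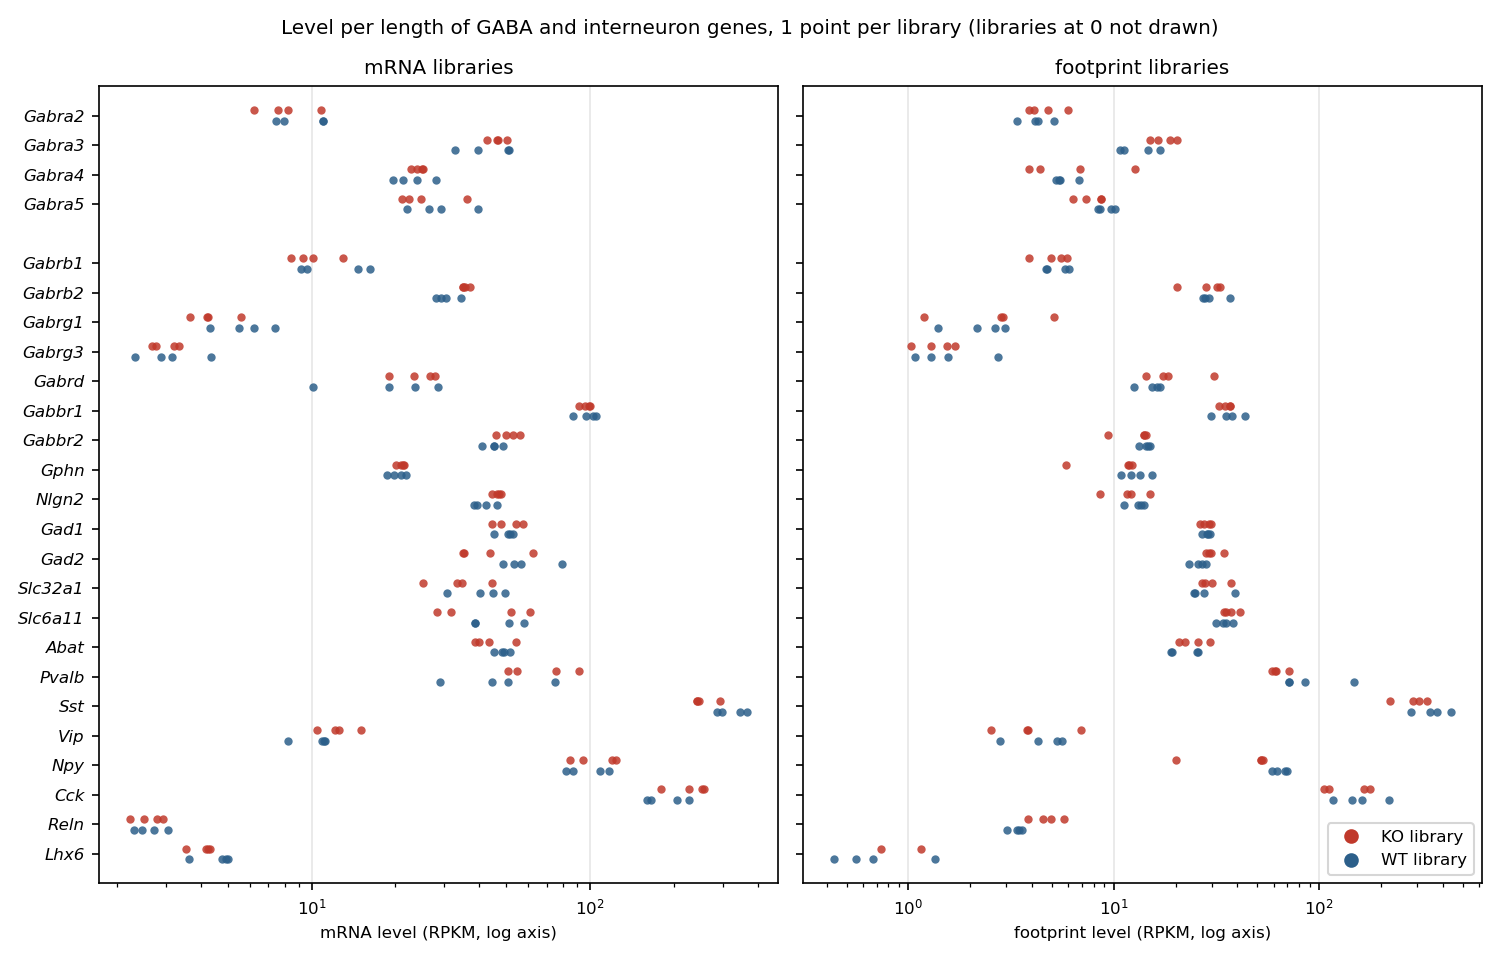
RPKM of each member in every library on a log axis, mRNA left and footprints right, with KO libraries above WT libraries. Peptide genes Sst and Cck lie at the top of both panels and Gabra6 has no footprint point.

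Footprints relative to mRNA varied widely among these genes. The ratio was taken per library in RPKM and given relative to the median gene of that library, on the log2 scale. Reln stood at 2.03 ± 0.343 in KO and 1.51 ± 0.271 in WT, at percentile 96.2 of the genes in WT, and Pvalb at 1.11 ± 0.495 in KO and 2.08 ± 0.793 in WT, at percentile 98.4. Sst stood at 1.34 ± 0.255 in KO and 1.29 ± 0.380 in WT (percentile 94.1) and Gabrb2 at 0.82 ± 0.291 in KO and 1.13 ± 0.291 in WT (percentile 91.9). Gad1 stood at 0.33 ± 0.123 in KO and 0.33 ± 0.038 in WT. Gabra6 and Lhx6, with too few footprints to test, were left out of this ratio. Of the members with a ratio the lowest in WT was Gabra4, at -0.79 ± 0.785 in KO and -0.86 ± 0.104 in WT (percentile 18.1). RPKM divides both kinds by the whole exonic length, and coding length was not used here.

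WT library 2 stood apart in the mRNA of the members. KO libraries 1 to 4 held the highest or the lowest value of the 8 in 5, 8, 6 and 3 of 25 members, and WT libraries 1 to 4 in 9, 14, 2 and 3. WT library 1 is left out with it below because both stood apart in an earlier analysis of these data. Without WT libraries 1 and 2, the mRNA log2 fold change was -0.27 for Gad2, -0.16 for Gabrg1, 0.15 for Gabrb2, -0.21 for Sst, 0.10 for Pvalb, 0.10 for Gabrb1 and 0.35 for Gabra3 (adjusted p = 0.630 for Gabra3). In footprints it was 0.45 for Reln, -0.80 for Pvalb, -0.47 for Npy, -0.46 for Sst and 0.25 for Gad2. In translational efficiency it was 0.53 for Gad2, 0.33 for Reln, -0.89 for Pvalb and -0.34 for Npy. With these libraries left out, 3 of 25 members had no overlap in mRNA (18.7% of all genes) and 8 of 24 in footprints (12.5% of all genes), and again 0 members passed the test.

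**Figure D4:**
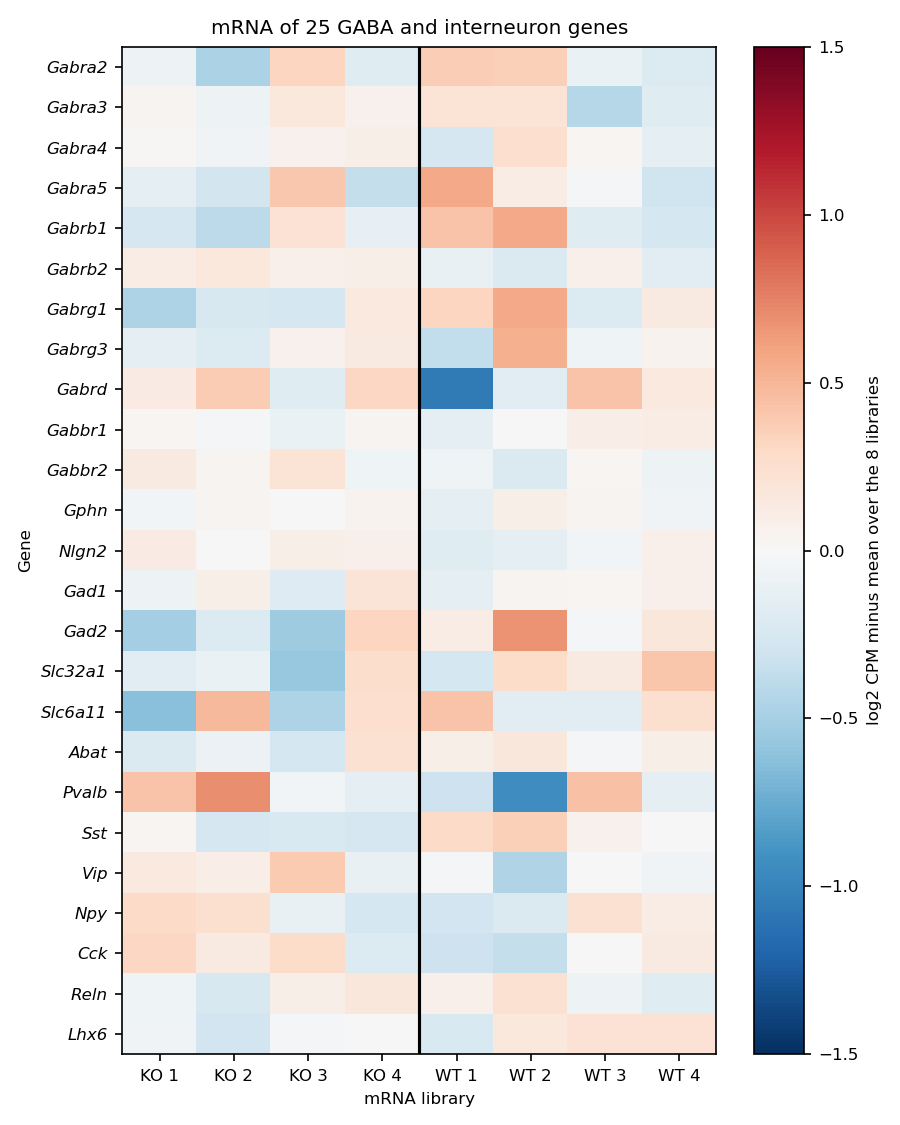
mRNA of 25 members in each library as log2 CPM minus the gene's mean over the 8 libraries, KO libraries left of WT libraries. WT library 2 holds the highest or lowest value in 14 of 25 genes, and the strongest blues are the low Gabrd value of WT library 1 (29.8 CPM) and the low Pvalb value of WT library 2 (30.8 CPM).

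Summed markers of other brain regions and cells also differed between these libraries, and not the same way in mRNA and footprints. Their part in the values above was not tested. The summed mRNA of 7 cortical excitatory markers was 1745 to 2296 CPM in KO and 1382 to 1741 CPM in WT, with 7 of 7 above 0 (median log2 fold change 0.38). The 8 striatal projection neuron markers, cells that are GABAergic and carry Gad1, Gad2 and Slc32a1, summed to 1320, 874, 557 and 2057 CPM in KO libraries and 401, 2169, 1515 and 1764 CPM in WT libraries, with 8 of 8 below 0. Gad2 mRNA in the same libraries was 209, 260, 206 and 373 CPM in KO and 322, 477, 294 and 336 CPM in WT. Its relation to this sum was not tested. Hypothalamic markers, with 6 of 10 tested, summed to 5.52 to 13.6 CPM in KO mRNA and 7.95 to 139 CPM in WT mRNA, 139 of it in WT library 1 and 96.2 in WT library 2. The 8 myelin genes summed to 4396 to 6010 CPM in KO and 6787 to 7379 CPM in WT mRNA, with 8 of 8 below 0. In footprints, the cortical excitatory markers summed to 333 to 505 CPM in KO and 358 to 509 CPM in WT, with 3 of 6 tested above 0 (median -0.05), and the striatal ones to 365 to 509 CPM in KO and 302 to 417 CPM in WT, with 5 of 7 tested above 0 (median 0.09). Hypothalamic footprints summed to 72.6 to 120 CPM in KO and 5.58 to 73.6 CPM in WT, the reverse of the mRNA, with 2 of 10 genes tested. Myelin footprints summed to 1553 to 1983 CPM in KO and 2200 to 2616 CPM in WT, with 8 of 8 below 0. The 10 interneuron markers themselves summed to 1378 to 1588 CPM in KO and 1459 to 1696 CPM in WT mRNA, and to 1053 to 1215 CPM in KO and 1099 to 1259 CPM in WT footprints.

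Other genes of the pathway also gave no call with edgeR. Of 51 further listed genes, 45 were tested in mRNA, of which 12 had a log2 fold change above 0 and 33 below it (median -0.11), and 0 passed the test. For the interneuron identity genes among them, 4 of 23 were above 0 and 19 below it (median -0.21), where 48.6% of all genes were above 0. Without WT libraries 1 and 2, 7 of these 23 were above 0 and 16 below it (median -0.08), where 50.9% of all genes were above 0, and the median over all 44 pathway genes then tested was -0.015. Over all listed pathway genes tested, 12 of 34 were above 0 in footprints (median -0.06) and 21 of 40 in translational efficiency (median 0.00), with 0 passing. The interneuron identity genes did not keep their mRNA direction there. In footprints 7 of 14 were above 0 (median 0.02), where 49.6% of all genes were. In translational efficiency 11 of 18 were above 0 (median 0.19), where 50.4% of all genes were. Slc12a2 encodes NKCC1, the chloride importer that opposes GABA's inhibition, and had 75.9, 88.1, 76.0 and 77.7 CPM in KO mRNA and 101, 98.6, 105 and 85.6 CPM in WT mRNA, without passing (-0.30 ± 0.08, adjusted p = 0.337). KO library 2 overlapped the WT range. Slc38a2 encodes a glutamine transporter, and had 157, 163, 159 and 151 CPM in KO mRNA and 141, 116, 131 and 144 CPM in WT mRNA, with no overlap (0.24 ± 0.08, adjusted p = 0.363). Cort encodes cortistatin, a peptide close to somatostatin, and had 4.64 ± 0.368 CPM in KO mRNA and 6.59 ± 1.07 CPM in WT mRNA (-0.51 ± 0.16, adjusted p = 0.358). Maf, a transcription factor of Sst and Pvalb interneurons, had 0.34 ± 0.12 (adjusted p = 0.406) and Dlx2, a factor of inhibitory neuron development, -0.46 ± 0.18 (adjusted p = 0.442). Gabrq encodes the theta chain, prominent in hypothalamus, and had 2.59, 3.68, 3.30 and 5.12 CPM in KO mRNA and 16.4, 13.3, 2.15 and 5.20 CPM in WT mRNA (-1.33 ± 0.51, adjusted p = 0.430), with the high values in WT libraries 1 and 2. Kctd8, a partner of the GABA-B receptor, passed in translational efficiency under DESeq2 alone (1.40 ± 0.41, adjusted p = 0.0472). Its footprints were low, at 8.55, 8.97, 26.9 and 16.7 CPM in KO libraries and 6.23, 8.37, 5.49 and 2.64 CPM in WT libraries. The highest value was in KO library 3, the shallowest footprint library.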

How the data were processed

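Ribosome footprints and mRNA of mouse brain were compared between libraries labelled Nsun5-KO and WT, 4 of each kind per genotype. The authors deposited raw counts per gene for 54532 genes, used here as they are, and RPKM for footprints and for mRNA, which the authors scaled with their own library sizes. TopHat2 and mm10 are named, without version or role, per the submitters' processing notes; the counter, annotation, strand setting and filters are not given in the sources used here. The mRNA columns were matched to samples by name.

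Counts were fitted with edgeR 4.0.16 (R 4.3.3; TMM, quasi-likelihood test, Benjamini-Hochberg over all genes, threshold 0.05), footprints after a minimum count of 10 (filterByExpr), mRNA where mean RPKM reached 1, and translational efficiency as the interaction of genotype and kind where it reached 1 in both kinds. SE is the log2 fold change over the root of F, and 95% intervals use the t distribution of the fit. CPM uses TMM library sizes. The fits were tested on simulated data. DESeq2 1.42.0, limma 3.58.1 on log2(RPKM + 0.1), other scalings and filters, a replicate block and left-out libraries were the alternatives.

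The members and the lists were chosen with earlier results of these data known. All members are named; values in every library are given for those with an unadjusted p under 0.05 in a fit and for Gad1, Gad2, Slc32a1, Pvalb, Sst, Vip and Gabrd; of the other pathway genes, those past the threshold or else the 6 of lowest mRNA p. The libraries of Gabrb1 and the Gabra6 counts were added after their values were seen. Marker lists of thalamus, olfactory bulb, astrocytes, microglia, endothelium, choroid plexus and ependyma overlapped between the genotypes in mRNA, except ependyma (7.83 to 16.1 CPM in KO, 17.1 to 27.3 CPM in WT). The 6 cerebellar genes tested summed with the rest of their list, Calb1 included, to 274 to 288 CPM in KO and 310 to 438 CPM in WT. A few genes of the pathway are not reported here.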

Additional observations from a re-analysis of the deposited data

Results flagged for a closer look

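In 7 of 98 groups of 4 libraries examined, 1 library lay far from the other three by Dixon's test, and chance alone gives about 1 in 20 groups. In mRNA, Sst was 213 CPM in KO library 1 against 176 to 179 CPM in the other KO libraries, Vip was 28.5 CPM in WT library 2 against 37.8 to 38.9 CPM in the other WT libraries, and Lhx6 was 17.8 CPM in WT library 1 against 23.3 to 24.4 CPM in the other WT libraries. In footprints, Gabbr2 was 65.3 CPM in KO library 3 against 97.7 to 99.1 CPM in the other KO libraries, and Gphn was 23.1 CPM in the same library against 45.9 to 47.6 CPM. KO library 3 is the shallowest footprint library, with 0.586 M counts. Npy was 11.8 CPM in KO footprint library 4, from 12 counts, against 30.5 to 31.7 CPM in the other KO libraries, and Gabra4 was 43.1 CPM in WT footprint library 2 against 33.4 to 35.1 CPM in the other WT libraries.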

How the results depend on the processing

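No GABA or interneuron gene passed the threshold under any alternative run, and the lowest adjusted p of a member was 0.0616, for Sst in mRNA. The number of all genes called in mRNA was 0, but 87 with DESeq2, 24 with no filter and 0 to 2 with 1 library left out. In footprints it was 0, but 4 with DESeq2, 86 with no filter (where the median of all genes shifts to -0.11) and 3 with protein-coding genes alone. In translational efficiency it was 0, but 144 with DESeq2 and 0 to 4 with 1 library left out. The members' median log2 fold change was -0.057 to 0.025 in mRNA, -0.06 to -0.01 in footprints and -0.04 to 0.07 in translational efficiency with 1 library left out; without WT libraries 1 and 2 it was 0.024 in mRNA and 0.0085 in footprints. The cause of these shifts was not tested.

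Counts of members without overlap under other scalings or left-out libraries were chosen after seeing the data. In mRNA the count was 0, but 1 with RLE scaling (Gabrb2), 1 with coding totals (Sst), 1 without KO replicate 3 (Gabrb2) and 3 without WT libraries 1 and 2. In footprints it was 4, but 3 with RLE, upper quartile or coding-total scaling, 4 without KO replicate 3 and 8 without WT libraries 1 and 2. The counts of other pathway genes without these libraries were also added after seeing the data. With 1 library left out, Gad2 mRNA ranged from -0.66 to -0.28, Gabrg1 mRNA from -0.55 to -0.29, Npy footprints from -0.70 to -0.29, without KO library 4 at the upper end, and Pvalb footprints from -0.69 to -0.26.

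The labels do not say whether replicate numbers pair the libraries. Deviations of same-numbered KO and WT libraries correlated at -0.247, 0.0750, -0.0349 and 0.0401 across genes in footprints. In mRNA they correlated at -0.113, -0.238, -0.0820 and 0.0309. Differently numbered libraries were not compared, so these values do not settle whether the numbers pair. A replicate block changed no member's call and gave 1 gene called in translational efficiency. Limma on the log2 ratio of each library keeps footprint and mRNA libraries of the same name together. Its unadjusted p was 0.041 for Gad2, 0.055 for Reln, 0.040 for Pvalb and 0.039 for Npy. Footprint counts of Lhx6 were too few to test, and Gabra6 was too low to test in either kind.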
